A study of Mus musculus with 4 samples.

Results

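The cytosolic ribosomal proteins are the protein components of the ribosomes that translate mRNA in the cytosol, and their mRNA levels were described at the lesion site of mice with spinal cord injury. The genes were chosen by symbol, as every gene with an Rpl, Rps or Rplp number, with or without 1 of 4 letter endings for paralogs and variants, and Rpsa, whereas symbols of pseudogenes and of the Rps6 kinases were not taken. This gave 76 genes of the 14718 listed in the deposited table, 47 of the large and 29 of the small subunit. By the same symbol rule the RefSeq annotation holds 83 protein-coding genes, of which 75 were listed, and Rps4l was listed without being annotated there as protein-coding. Among the 8 genes that were not listed are Rps3, Rps10, Rps12 and the paralogs Rpl3l, Rpl10l and Rpl39l. All 76 genes were listed at 7 days post injury (dpi) and 54 of them also at 21 dpi. Every row of the table has a test status of Ok, and why a gene is not listed is not known; it has no value here, which is different from a gene at 0.

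The animals were male targeted replacement mice, in which the coding region of human ApoE3 or of human ApoE4 stands in the place of the mouse Apoe gene. At 3 to 5 months of age they received a 50 kdyne contusion at thoracic vertebra 9, and RNA was taken from about 4 mm of cord around the lesion. The 4 groups were ApoE3 at 7 dpi, ApoE4 at 7 dpi, ApoE3 at 21 dpi and ApoE4 at 21 dpi, and no uninjured animals were analysed here. The methods give 3 mice per genotype and time point, but the table holds 1 value per gene and group, so no difference below has a replicate check and no test between groups was run here; the authors' own test columns were not used. Values are FPKM (fragments normalized to transcript length and to sequencing depth), a level per length. Levels of different genes can be compared only with care, because many of these genes share sequence with others, as described below. The table does not give the number of reads behind a value. Ratios are log2 of ApoE3 over ApoE4 after adding 1 FPKM to both values, so that a negative ratio means a lower level in ApoE3. The column numbers of the table name the genotypes in the opposite order to its comparison names; the latter were followed, and under the other reading every difference between genotypes would point the other way.

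A ribosome joins a small subunit, which binds the mRNA and reads its codons, with a large subunit, which forms the peptide bonds and releases the growing chain through an exit tunnel. Most ribosomal proteins are present in equal number in each ribosome, and many of their mRNAs begin with a run of C and T bases, the 5′ terminal pyrimidine tract, through which mTOR signaling adjusts their translation together. In the nervous system ribosomes are found in cell bodies, glial processes and axons, where local translation follows injury.

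The bases around the transcription start are shown for 7 genes that the results below turn on, 15 bases before the start and 15 from the start onward, with the longest run of pyrimidines in capitals. They come from RefSeq, build GRCm38.p6, in which 56 of the 76 genes had an entry.
Rps27, chr3:90213634-90213663, minus strand: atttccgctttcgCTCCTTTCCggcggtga
Rps27l, chr9:66946071-66946100, plus strand: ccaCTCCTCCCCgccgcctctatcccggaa
Rplp2, chr7:141447636-141447665, plus strand: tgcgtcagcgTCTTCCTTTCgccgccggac
Rps6, chr4:86857353-86857382, minus strand: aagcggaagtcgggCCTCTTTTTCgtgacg
Rpl28, chr7:4792950-4792979, plus strand: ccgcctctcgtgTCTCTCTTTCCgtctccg
Rpl38, chr11:114668565-114668594, plus strand: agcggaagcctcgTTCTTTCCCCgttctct
Rps2, chr17:24720048-24720077, plus strand: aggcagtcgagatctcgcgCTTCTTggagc
In Rps27, Rplp2, Rps6, Rpl28 and Rpl38 the run of pyrimidines holds the first base of the transcript. In Rps27l, the paralog of Rps27, at the first of 2 annotated starts, a run of 9 pyrimidines lies before the start, and in Rps2 a run of 6 lies within the transcript. A run of at least 8 pyrimidines held the start base in 16 of the 56 genes (28.6%), against 4.59% of the 27025 genes in the promoter table. Runs of this length began within 20 bases of the start in 30 of the 56 genes and in 20.9% of all genes. In the 300 bases around the start, CCGGAAG, the core bound by ETS family factors, was found on either strand in 23 of the 56 genes (41.1%) and in 9.93% of all genes, and AAGATGGC, the core bound by YY1, in 6 (10.7%) and 3.19%. These matches describe the letters only.

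At 7 dpi the ribosomal protein mRNAs lay slightly but broadly lower in ApoE3 than in ApoE4. Of the 76 genes, 64 were lower in ApoE3 (84.2%), whereas 49.5% of all 14127 rows at this time point were. Their median log2 ratio was -0.070, with the middle 50% of the genes between -0.12 and -0.027, and the median over all genes with a mean of at least 1 FPKM was 0.0018. Only Rps2 was at least 1.3-fold lower in ApoE3, 1 of 76 against 4.76% of all rows, and no gene was at least 1.3-fold higher, against 3.78%. In RNA of whole tissue, fewer cells of a type and less RNA per cell cannot be told apart. Summed over the 76 genes the level was 26015 FPKM in ApoE3 and 27384 FPKM in ApoE4. The ratios had a standard deviation over genes of 0.0999, compared with 0.213 for the 10478 other rows with a mean FPKM within the range of the ribosomal protein genes. The large subunit genes had a median of -0.075 with 39 of 47 lower in ApoE3, and the small subunit genes -0.055 with 25 of 29 lower.

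Rps2, a protein near the path by which mRNA enters the small subunit, was at 60.8 FPKM in ApoE3 and 86.3 FPKM in ApoE4 at 7 dpi, a log2 ratio of -0.50. Rps19, the gene first linked to Diamond-Blackfan anemia, came next with 767 FPKM in ApoE3 and 945 FPKM in ApoE4 and a ratio of -0.30. Neither gene was listed at 21 dpi. Then followed Rps27l with -0.25, Rpl13 with -0.22 and Rpl29 with -0.21. At the other end stood Rpl38, a large subunit protein known for its part in the translation of Hox mRNAs during development, at 73.1 FPKM in ApoE3 and 63.3 FPKM in ApoE4 and a ratio of 0.21. Rps21 was at 11.5 FPKM in ApoE3 and 10.1 FPKM in ApoE4, a ratio of 0.18, and Rpl21, Rpl35a and Rpl26 had ratios of 0.085, 0.068 and 0.047. Between these ends most genes differed little between genotypes.

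At 21 dpi most of the transcriptome was listed lower in ApoE3, and the ribosomal protein mRNAs lay close to that shift. The median log2 ratio of all genes was -0.42, and the 54 ribosomal protein genes had a median of -0.37, all 54 being lower in ApoE3, as were 93.8% of the 11474 rows. At least 1.3-fold lower in ApoE3 were 25 of the 54, fewer in proportion than the 58.9% of all rows, and none was 1.3-fold higher, against 2.02%. Since the shift of all genes is of this size, ratios at 21 dpi are given below as centred ratios, minus the median of all genes. The median centred ratio of the ribosomal protein genes was 0.054, and 17 of the 54 were negative on this scale, against 50% of all rows. The direction of the median therefore depends on the scale, being lower in ApoE3 as deposited and slightly higher in ApoE3 after centring. On the centred scale 1 gene, Rps27l, was at least 1.3-fold lower, against 8.07% of rows, and 1 gene, Rpl38, at least 1.3-fold higher, against 7.47%. The standard deviation over the 54 genes was 0.153, and it was 0.310 for the 7796 other rows in their range of FPKM.

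**Figure D1:**
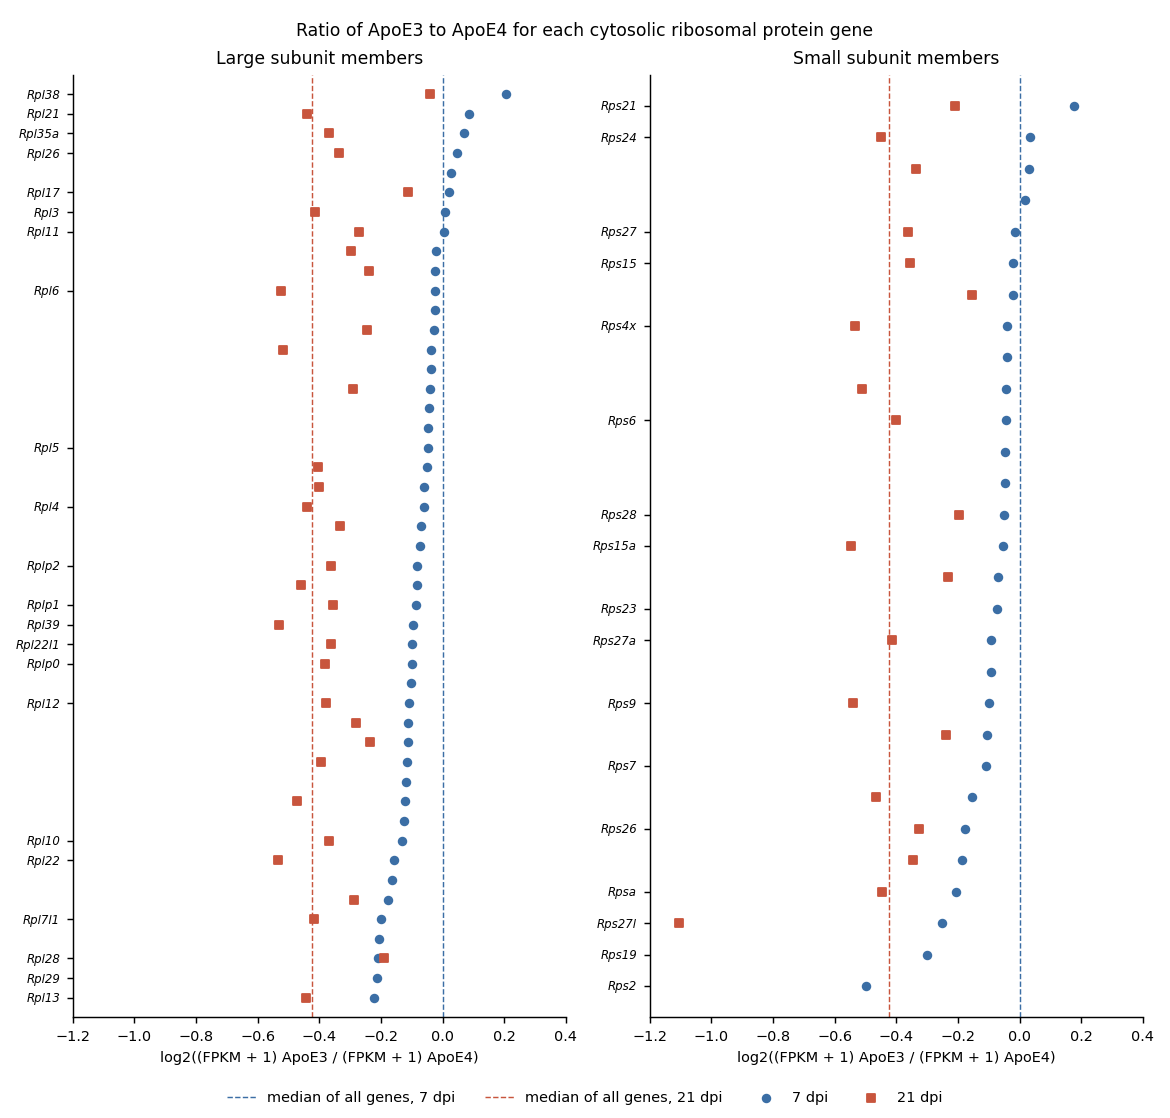
Each gene is a row, selected genes being named, with its log2 ratio of ApoE3 to ApoE4 at 7 dpi (blue circles) and, where listed, at 21 dpi (red squares); dashed lines are the medians of all genes. At 7 dpi 64 of 76 points lie below 0, at 21 dpi all 54 do, around an all-gene median of -0.42, and Rps27l lies apart at -1.10.

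Rps27l, a paralog of Rps27 known as a target of p53, was the gene farthest from the others at 21 dpi. Its level was 64.4 FPKM in ApoE3 and 76.9 FPKM in ApoE4 at 7 dpi, and 50.04 FPKM and 109 FPKM at 21 dpi. ApoE4 at 21 dpi was the highest of the 4 groups and ApoE3 at 21 dpi the lowest, and on the FPKM + 1 scale ApoE4 was 2.15-fold above ApoE3 at that time point. The centred ratio was -0.68. Rps27 itself, a small subunit protein with a zinc finger, was at 1080.0 FPKM in ApoE3 and 1091 FPKM in ApoE4 at 7 dpi, and 1718 FPKM and 2207 FPKM at 21 dpi. It was among the most abundant genes in each group, nearly equal between genotypes at 7 dpi, and its centred ratio at 21 dpi was 0.062. Both genes encode proteins of 84 residues by the GENCODE coding sequences, but no 100-base window of the Rps27l transcript was found in another gene, while 98.4% of those of Rps27 were.

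Rpl38 was the gene at the upper end at both time points, at 73.1 FPKM in ApoE3 and 63.3 FPKM in ApoE4 at 7 dpi, and 176 FPKM and 182 FPKM at 21 dpi. It was higher in ApoE3 at 7 dpi and nearly equal between genotypes at 21 dpi, where its centred ratio was 0.38. Also near this end at 21 dpi were Rpl17, of the exit tunnel rim, with a centred ratio of 0.31, Rpl28 with 0.23 and Rps28 with 0.23. At the lower end after Rps27l stood Rps15a with -0.12, Rps9 with -0.12, Rpl22 with -0.11 and Rps4x with -0.11, all of them closer to the median of all genes than Rps27l. The other genes at least 1.3-fold lower in ApoE3 before centring, among them Rpl39, Rpl6, Rpl36a, Rps14, Rpl10a, Rps20, Rpl27a, Rps24, Rpsa and Rpl13, had uncentred ratios from -0.53 to -0.38, close to the median of all genes.

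Rpl28 lay on opposite sides of all genes at the time points. Its level was 157 FPKM in ApoE3 and 182 FPKM in ApoE4 at 7 dpi, and 271 FPKM and 310.0 FPKM at 21 dpi, so that it was lower in ApoE3 at both, but its centred ratio was -0.21 at 7 dpi and 0.23 at 21 dpi. Of the 54 genes listed at both time points, 44 had a negative centred ratio at 7 dpi (81.5%, against 49.3% of all genes listed at both). A positive one at 21 dpi was found for 37 (68.5%, against 50.2%). Both held for 29 (53.7%, against 25.6% of the 10879 genes listed at both time points), no more than follows from the 2 counts taken separately. The reverse held for 2 (3.70%, against 26.1%), 15 were negative at both (27.8%, against 23.6%) and 8 positive at both (14.8%, against 24.6%). Across the 54 genes the ratios at 7 and 21 dpi had a Spearman correlation of 0.24 and a Pearson correlation of 0.41. Genes are not independent replicates, and no p is given for any correlation across them.

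The share of all measured FPKM taken by the ribosomal protein genes does not depend on how a group was scaled. Over the 10879 genes listed at both time points, the 54 genes took 1.63% of the sum in the ApoE3 group at 7 dpi and 1.70% in the ApoE4 group. At 21 dpi the shares were 1.91% and 1.83%. ApoE3 thus had the smaller share at the earlier time point and the larger one at the later, and each genotype had a larger share at 21 dpi. Mbp, the myelin basic protein gene and the most abundant transcript, alone took between 10.1% and 14.3%. The mitochondrial ribosomal proteins, with 63 genes, took 0.270% and 0.284% at 7 dpi and 0.384% and 0.367% at 21 dpi, in the same order of the groups.

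**Figure D2:**
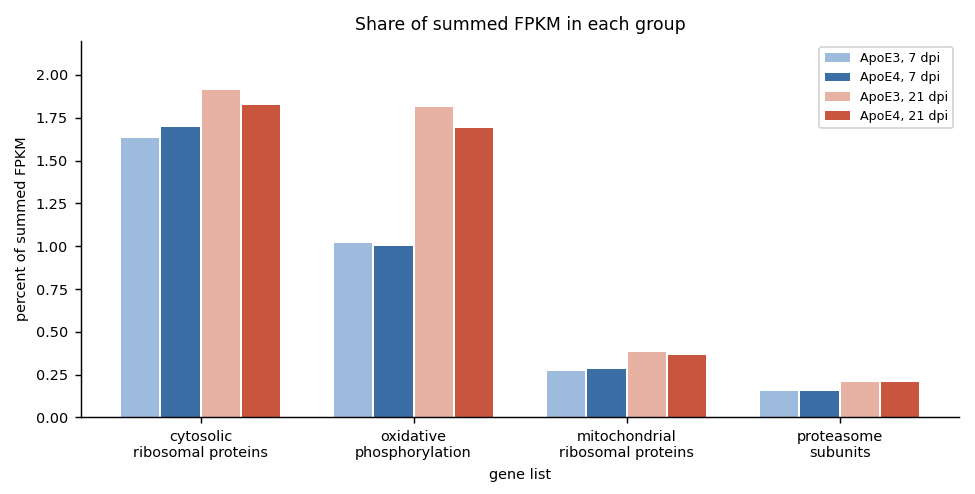
Bars give the percent of the summed FPKM of 10879 genes taken by each gene list in ApoE3 and ApoE4 at 7 dpi (blue) and 21 dpi (red), 1 value per group. The cytosolic ribosomal proteins take between 1.63% and 1.91%, and the order of the genotypes differs between the time points. The other lists are oxidative phosphorylation subunits, mitochondrial ribosomal proteins and the proteasome.

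Between 7 and 21 dpi the ribosomal protein mRNAs were higher at 21 dpi by more than the median gene in both genotypes, although the time points were normalized separately and a ratio across them also holds any difference in scaling. In ApoE3 the median log2 ratio of 21 over 7 dpi was 0.49 for the 54 genes and 0.089 for all genes with a mean of at least 1 FPKM, and 48 of the 54 lay above that median. In ApoE4 it was 0.80 for the 54 genes and 0.53 for all genes, 45 of the 54 being above it. The difference from the median of all genes was 0.40 in ApoE3 and 0.27 in ApoE4. Rpl38 had the largest ratio in both genotypes, 1.26 in ApoE3 and 1.51 in ApoE4. Rps27l had the lowest in ApoE3, -0.36, whereas in ApoE4 its ratio was 0.50 and Rpl7l1 had the lowest with -0.069. The nuclear oxidative phosphorylation subunits had medians of 1.11 and 1.45, the mitochondrial ribosomal proteins 0.78 and 1.07, and the proteasome subunits 0.66 and 1.16, all above the ribosomal protein genes in both genotypes. Initiation factors, with 0.16 in ApoE3 and 0.66 in ApoE4, lay below them in both, and ribosome biogenesis factors, with 0.36 and 0.85, below them in ApoE3 only.

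The neuron and glia markers listed at both time points also differed between 7 and 21 dpi, and none of them was at 0. All 9 microglia and macrophage markers lay below the median log2 ratio of all genes of 21 over 7 dpi in both genotypes, with medians of -1.42 in ApoE3 and -0.86 in ApoE4 (summed level 8035 FPKM in ApoE3 at 7 dpi, 1353 FPKM in ApoE3 at 21 dpi, 10452 FPKM in ApoE4 at 7 dpi, 2559 FPKM in ApoE4 at 21 dpi; Lyz2 was the most abundant at 7 dpi and C1qa at 21 dpi). Of 13 neuron markers, 12 in ApoE3 and 13 in ApoE4 lay above it, with medians of 0.73 and 1.66 (summed level 5715 FPKM in ApoE3 at 7 dpi, 9731 FPKM in ApoE3 at 21 dpi, 4491 FPKM in ApoE4 at 7 dpi, 14169 FPKM in ApoE4 at 21 dpi, with Snap25 the most abundant). Of 8 astrocyte markers 7 lay below it in both genotypes, with medians of -0.42 and 0.25 (summed level 17497 FPKM in ApoE3 at 7 dpi, 11007 FPKM in ApoE3 at 21 dpi, 17078 FPKM in ApoE4 at 7 dpi, 20112 FPKM in ApoE4 at 21 dpi, with Gfap the most abundant). Of 4 oligodendrocyte markers 3 in ApoE3 and 4 in ApoE4 lay above it, with medians of 0.44 and 0.97 (summed level 126988 FPKM in ApoE3 at 7 dpi, 210179 FPKM in ApoE3 at 21 dpi, 134139 FPKM in ApoE4 at 7 dpi, 291564 FPKM in ApoE4 at 21 dpi, with Mbp the most abundant). The part of these differences in the ratios of the ribosomal protein genes over time was not tested.

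The levels of the ribosomal protein genes spanned a wide range, at 7 dpi in ApoE3 from 10.1 FPKM for Rpl12 to 1245 FPKM for Rplp1, although a ribosome holds most of the proteins in equal number. How reads that fit several genes were assigned was not tested, so this range need not be one of mRNA amounts. The median over the 76 genes at 7 dpi was 239 FPKM in ApoE3 and 251 FPKM in ApoE4, against 33.0 FPKM over all rows in both genotypes. Of the 54 genes listed at both time points, the 5 most abundant by the mean of the 4 groups were Rplp1 with 1706 FPKM, Rps27 with 1524 FPKM, Rps24 with 1379 FPKM, Rps29 with 1264 FPKM and Rpl3 with 1200.3 FPKM. The 5 least abundant of these 54 were Rpl12 with 12.2 FPKM, Rps21 with 14.2 FPKM, Rpl7l1 with 28 FPKM, Rpl36a with 29.9 FPKM and Rpl10 with 60.7 FPKM. The order of the genes was nearly the same at both time points, with a Spearman correlation of 0.98 between the mean levels of the 54 genes.

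**Figure D3:**
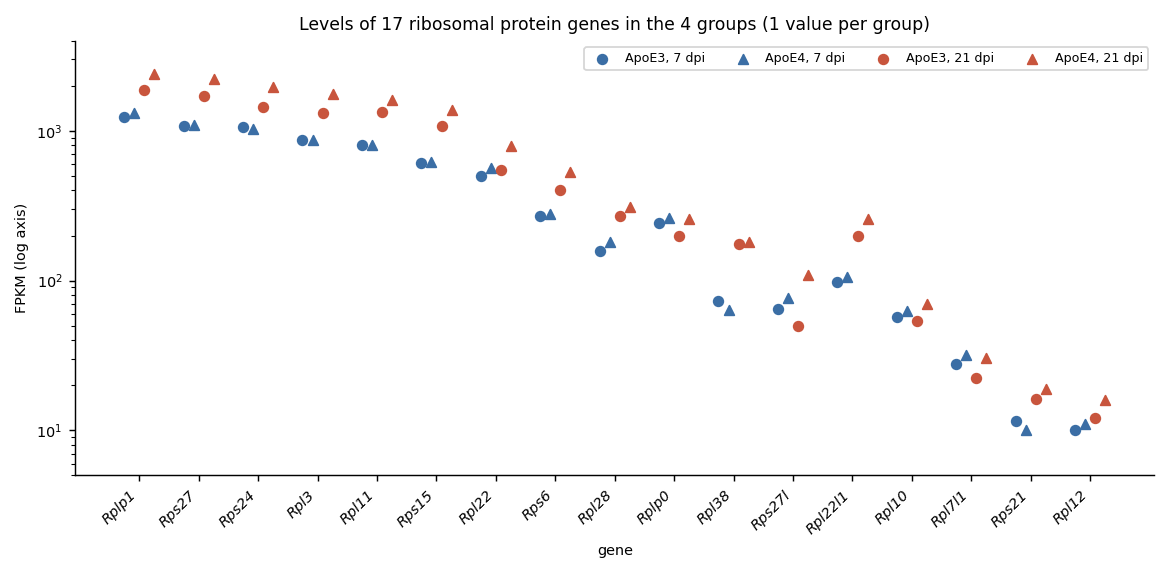
Points give the FPKM (log axis) of selected ribosomal protein genes in ApoE3 (circles) and ApoE4 (triangles) at 7 dpi (blue) and 21 dpi (red), 1 value per group. The genes run from Rplp1 to Rpl12, and Rps27l is lowest in ApoE3 at 21 dpi and highest in ApoE4 at 21 dpi.

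In the stalk of the large subunit, which recruits the translation factors that hydrolyze GTP, the 4 genes had similar ratios. Rplp0, which anchors the stalk, was at 243 FPKM in ApoE3 and 261 FPKM in ApoE4 at 7 dpi, and 198 FPKM and 259 FPKM at 21 dpi. It was among the 5 genes in ApoE3 and the 2 in ApoE4 whose level was lower at 21 than at 7 dpi. Rplp1, one of the acidic proteins of the stalk tip, was at 1245 FPKM in ApoE3 and 1322 FPKM in ApoE4 at 7 dpi, and 1869 FPKM and 2389.8 FPKM at 21 dpi. Rplp2, its partner, was at 267 FPKM in ApoE3 and 283 FPKM in ApoE4 at 7 dpi, and 349 FPKM and 448 FPKM at 21 dpi. Both were highest in ApoE4 at 21 dpi. Rpl12, at the stalk base, was at 10.1 FPKM in ApoE3 and 11 FPKM in ApoE4 at 7 dpi, and 12 FPKM and 15.9 FPKM at 21 dpi, the lowest level of any member in every group but ApoE4 at 7 dpi, where Rps21 was lower. The ratios of the 4 stalk genes at 7 dpi ran from -0.11 to -0.083, and the centred ratios at 21 dpi from 0.040 to 0.069.

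Rpl5 and Rpl11 form a particle with 5S rRNA, which outside the ribosome binds Mdm2 and so stabilizes p53. Rpl11 was at 803 FPKM in ApoE3 and 800.2 FPKM in ApoE4 at 7 dpi, and 1336 FPKM and 1613 FPKM at 21 dpi, equal between genotypes at 7 dpi and with a centred ratio of 0.15 at 21 dpi. Rpl5 was at 111 FPKM in ApoE3 and 115 FPKM in ApoE4 at 7 dpi and was not listed at 21 dpi. The level of Rpl5 was far below that of its partner, and 91.1% of its 100-base windows were also found in other genes. Around the exit tunnel all 8 genes of the list were measured at both time points (Rpl4, Rpl17, Rpl19, Rpl23a, Rpl26, Rpl31, Rpl35 and Rpl39), with a median ratio of -0.056 at 7 dpi and a median centred ratio of 0.055 at 21 dpi. Rpl4, which lines the tunnel, was at 161 FPKM in ApoE3 and 167 FPKM in ApoE4 at 7 dpi, and 223 FPKM and 303 FPKM at 21 dpi. Rpl39, the short protein near the tunnel exit, was at 264 FPKM in ApoE3 and 283 FPKM in ApoE4 at 7 dpi, and 283 FPKM and 409.5 FPKM at 21 dpi, and its centred ratio of -0.11 was the lowest of this group, whereas Rpl17 with 0.31 was the highest.

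On the decoding side of the small subunit 3 of 5 genes were listed at 7 dpi and Rps15 alone at 21 dpi. Rps15, near the decoding center, was at 615 FPKM in ApoE3 and 624 FPKM in ApoE4 at 7 dpi, and 1071 FPKM and 1371 FPKM at 21 dpi. Rps23, which has a loop at the decoding center, was at 67.9 FPKM in ApoE3 and 71.5 FPKM in ApoE4 at 7 dpi. Rps6, the substrate of the S6 kinases downstream of mTOR, was at 269 FPKM in ApoE3 and 277 FPKM in ApoE4 at 7 dpi, and 403 FPKM and 533 FPKM at 21 dpi. Its centred ratio at 21 dpi was 0.022, so its mRNA was near the median of all genes. Rps27a, made as a fusion with ubiquitin, was at 757 FPKM in ApoE3 and 807 FPKM in ApoE4 at 7 dpi, and 1203 FPKM and 1602 FPKM at 21 dpi. Rpsa, also known as a laminin receptor, was at 229 FPKM in ApoE3 and 265 FPKM in ApoE4 at 7 dpi, and 318 FPKM and 434 FPKM at 21 dpi, lower in ApoE3 at both time points but at -0.022 after centring at 21 dpi. Of the proteins that join late in assembly, Rpl10 was at 57 FPKM in ApoE3 and 62.6 FPKM in ApoE4 at 7 dpi, and 53.7 FPKM and 69.7 FPKM at 21 dpi, the lower level in ApoE3 at both as deposited but with a centred ratio of 0.053 at 21 dpi. Rps26, on the mRNA exit side, was at 223 FPKM in ApoE3 and 252 FPKM in ApoE4 at 7 dpi, and 308 FPKM and 386 FPKM at 21 dpi, and its centred ratio at 21 dpi was 0.098. Rpl24, at a bridge between the subunits, was at 42 FPKM in ApoE3 and 43.1 FPKM in ApoE4 at 7 dpi and was not listed at 21 dpi. The ratios of Rpl10, Rps26 and Rpl24 at 7 dpi were -0.13, -0.18 and -0.037.

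Of 10 genes in which mutations cause Diamond-Blackfan anemia, a failure of red cell production, 9 were listed at 7 dpi and 6 at 21 dpi. Their median ratio at 7 dpi was -0.048, and the ratios ran from -0.30 for Rps19 to 0.068 for Rpl35a. Lower in ApoE3 were 5 of 9 (55.6%), close to the 49.5% of all rows. At 21 dpi the median centred ratio was 0.093, and 5 of 6 centred ratios were positive, whereas 50% of all rows were negative on this scale. Rps24, the most abundant of them, was at 1059.8 FPKM in ApoE3 and 1035 FPKM in ApoE4 at 7 dpi, and 1447 FPKM and 1976 FPKM at 21 dpi. It was slightly higher in ApoE3 at 7 dpi and lower at 21 dpi, where its centred ratio was -0.026. Rps7, listed at 7 dpi only, was at 231 FPKM in ApoE3 and 249.8 FPKM in ApoE4.

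Several ribosomal proteins have paralogs, and the pairs differed in level. Rpl22 was at 503 FPKM in ApoE3 and 562 FPKM in ApoE4 at 7 dpi, and 546 FPKM and 792 FPKM at 21 dpi. The level of its paralog Rpl22l1 was 97.9 FPKM in ApoE3 and 105 FPKM in ApoE4 at 7 dpi, and 199 FPKM and 256 FPKM at 21 dpi. Rpl22 was above Rpl22l1 in every group, by a smaller factor at 21 dpi than at 7 dpi, since the log2 ratio of 21 over 7 dpi was 0.12 for Rpl22 and 1.01 for Rpl22l1 in ApoE3, and 0.49 and 1.28 in ApoE4. Rpl7 was at 453 FPKM in ApoE3 and 467 FPKM in ApoE4 at 7 dpi. Its paralog Rpl7l1 was at 27.6 FPKM in ApoE3 and 31.8 FPKM in ApoE4 at 7 dpi, and 22.4 FPKM and 30.3 FPKM at 21 dpi, and it was among the lowest genes in all groups. Rpl3 was at 872 FPKM in ApoE3 and 868 FPKM in ApoE4 at 7 dpi, and 1312 FPKM and 1749.8 FPKM at 21 dpi, the same between genotypes at 7 dpi, and its muscle paralog Rpl3l was not listed, nor were Rpl10l and Rpl39l.

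The 22 genes listed at 7 dpi only, Rpl5, Rpl7, Rpl13a, Rpl14, Rpl15, Rpl18, Rpl23, Rpl24, Rpl27, Rpl29, Rpl37, Rpl37a, Rpl41, Rps2, Rps4l, Rps7, Rps13, Rps16, Rps18, Rps19, Rps23 and Rps25, included both weakly and strongly expressed ones. Their mean level at 7 dpi had a median of 163 FPKM, from 31.1 FPKM for Rpl37 to 1129 FPKM for Rpl13a, beside 257 FPKM for the 54 genes listed at both. The median ratio at 7 dpi was -0.074 for the 22 genes and -0.065 for the 54.

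Ribosomal protein genes have many processed pseudogenes, and reads that fit several places are hard to assign. Of 75 genes with a GENCODE transcript, 5 had no 100-base window, the length of the reads, in common with a transcript of another gene, and in 34 more than 50% of the windows were shared, the median over the 75 genes being 45%. Rpl21 shared windows with 40 other genes, Rpl7a with 37 and Rps2 with 36. The share of such windows showed little relation to the level at 7 dpi, with a Spearman correlation of -0.059 over 75 genes, or to the ratio at 7 dpi (0.0096, 75 genes) and at 21 dpi (0.19, 54 genes). The median share was 38.6% for the 54 genes listed at both time points and 55.2% for 21 of those listed at 7 dpi only. How the authors' programs assigned such reads was not tested. The table also lists 4 ribosomal protein pseudogenes at 7 dpi, of which Rpl14-ps1 was the most abundant with 37.6 FPKM in ApoE3 and 42.3 FPKM in ApoE4.

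**Figure D4:**
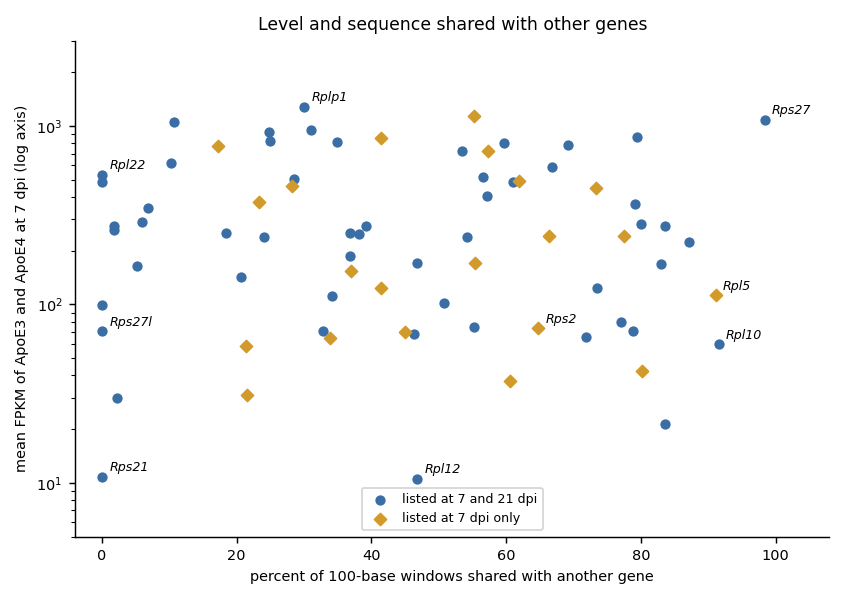
Each point is a gene, with the percent of its 100-base windows found in transcripts of other genes against its mean FPKM of both genotypes at 7 dpi (log axis); blue circles are listed at both time points and yellow diamonds at 7 dpi only. Rps27, with 98.4% shared, is among the highest and Rpl10, with 91.6%, among the lower ones.

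The ratios of the ribosomal protein genes were also set against protein length and the promoter letters. The Spearman correlation of the ratio with protein length was -0.13 at 7 dpi over 75 genes and -0.25 at 21 dpi over 54. Genes with a pyrimidine run at the start base had a median ratio of -0.076 at 7 dpi and those without it -0.074. At 21 dpi the medians before centring were -0.36 for 13 genes with such a run and -0.39 for 24 without. For CCGGAAG they were -0.35 for 16 genes with a match and -0.38 for 21 without. The split by pyrimidine run rests on the annotated starts. Some genes counted as without a run at the start base, such as Rps15a and Rpl18, have one nearby. It therefore cannot be read as a comparison of tract mRNAs with others.

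Other parts of the translation machinery were set beside the ribosomal protein genes, first as the ratio at 7 dpi and then as the centred ratio at 21 dpi. The mitochondrial ribosomal proteins, which translate the mitochondrial genome, had medians of -0.064 and 0.057, nearly those of the cytosolic ones, with 57 of 78 lower in ApoE3 at 7 dpi. Their ratios ran from -0.38 for Mrps36 to 0.24 for Mrps5 at 7 dpi and from -0.60 for Mrps23 to 0.40 for Mrpl14 at 21 dpi. Ribosome components outside the symbol rule, such as Fau and Rps3a1, had -0.079 (4 genes) and -0.057 (2 genes), and ran from -0.17 for Fau to -0.064 for Rps3a1 and from -0.063 for Rpl36al to -0.050 for Rps3a1. Cytosolic elongation factors had 0.032 (6 genes) and 0.057 (3 genes), and ran from -0.18 for Eef1b2 to 0.30 for Eef1a2 and from -0.065 for Eef1b2 to 0.12 for Eef2. Initiation factors had 0.0073 (26 genes) and -0.034 (23 genes), and ran from -0.15 for Eif5b to 0.14 for Eif4e and from -0.57 for Eif3a to 0.19 for Eif3l. Other mRNAs known to carry a terminal pyrimidine tract, many of which also belong to these lists, had -0.0038 (18 genes) and -0.065 (11 genes), and ran from -0.21 for Vim to 0.11 for Eif4b and from -0.23 for Tpt1 to 0.12 for Eef2. The median of the elongation factors lay on the other side of all genes from the ribosomal protein genes at 7 dpi and on the same side at 21 dpi. That of the other tract mRNAs lay on the same side at 7 dpi, with -0.0056 after centring, and on the other side at 21 dpi. Both lists are short, and their genes went both ways at both time points.

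For ribosome biogenesis factors the medians were 0.0022 (29 genes) and -0.033 (24 genes), and the ratios ran from -0.57 for Nle1 to 0.34 for Nip7 and from -0.41 for Utp4 to 0.25 for Nop10. RNA polymerase I and its factors, which make the rRNA precursor, had -0.15 (10 genes) and 0.069 (9 genes), and ran from -0.39 for Taf1c to 0.17 for Taf1b and from -0.40 for Taf1d to 0.24 for Polr1b. Like the ribosomal protein genes, this list had a negative median at 7 dpi and a positive centred median at 21 dpi. Proteasome subunits, as another large complex, had 0.037 (37 genes) and -0.0001 (32 genes), and ran from -0.15 for Psmc3 to 0.19 for Psma2 and from -0.24 for Psmb8 to 0.26 for Psmb3. Nuclear oxidative phosphorylation subunits had 0.049 (82 genes) and 0.065 (65 genes), and ran from -0.24 for Cox7a1 to 0.26 for Cox6a2 and from -1.03 for Cox6a2 to 0.43 for Cox6b2.

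**Figure D5:**
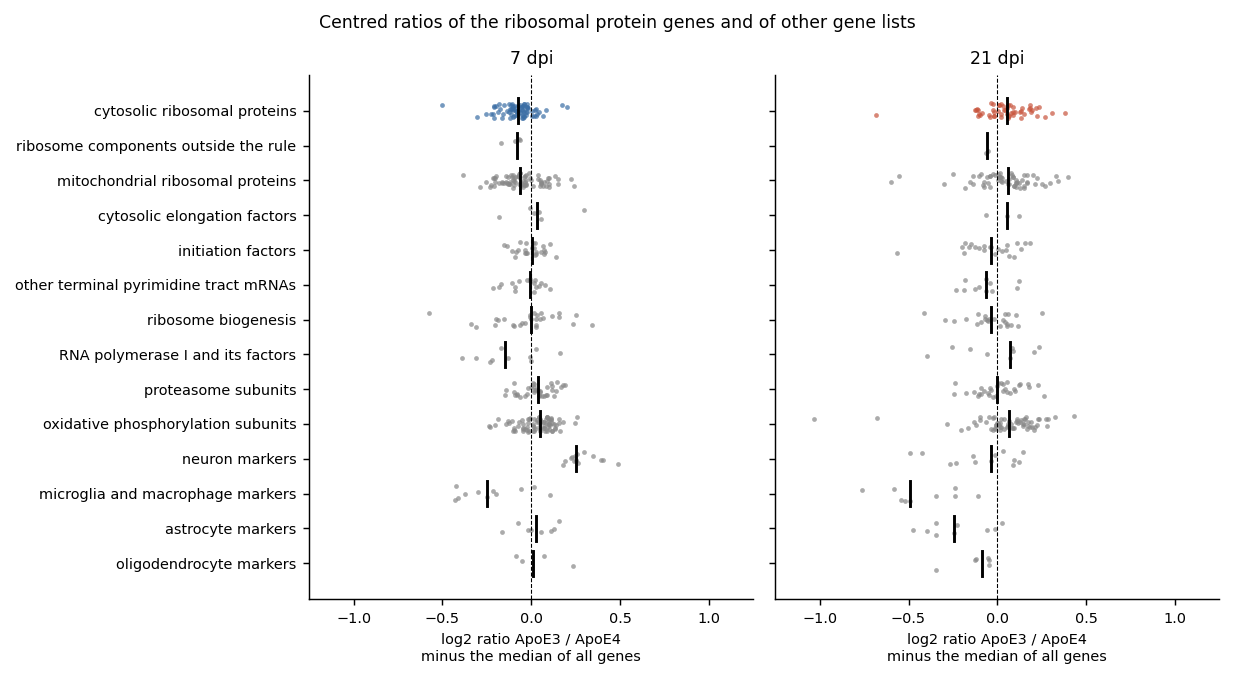
Points are genes and black bars list medians of the centred log2 ratio of ApoE3 to ApoE4, at 7 dpi (left) and 21 dpi (right), with the ribosomal protein genes in color and other lists in grey. The ribosomal protein median is -0.072 at 7 dpi and 0.054 at 21 dpi, a smaller distance from 0 than that of the microglia and macrophage markers at both.

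Markers of several cell types in the segment differed more between genotypes than the ribosomal protein genes. At 7 dpi all 15 listed neuron markers were higher in ApoE3 (median 0.25; summed level 6612 FPKM in ApoE3 and 5238 FPKM in ApoE4, Snap25 being the most abundant), and 9 of 11 microglia and macrophage markers were lower (median -0.25; summed level 9619 FPKM in ApoE3 and 12466 FPKM in ApoE4, led by Lyz2). All 7 fibroblast markers were also lower in ApoE3 (median -0.37; 783 FPKM in ApoE3 and 1051 FPKM in ApoE4, led by Col1a1). The medians were 0.029 for 8 astrocyte, 0.012 for 4 oligodendrocyte and -0.067 for 7 endothelial markers. They were 0.28 for 9 of 14 skeletal muscle markers (169 FPKM in ApoE3 and 134 FPKM in ApoE4), 0.32 for 4 of 11 sensory ganglion neuron markers (508 FPKM in ApoE3 and 391 FPKM in ApoE4, led by Calca) and -0.31 for 2 of 10 lymphocyte markers (5.10 FPKM in ApoE3 and 6.81 FPKM in ApoE4, led by Ptprcap). Of the 9 muscle markers 7 were higher and 2 lower in ApoE3. Pvalb alone held 98.3 FPKM of their sum in ApoE3 and 86.4 FPKM in ApoE4, and it was not listed at 21 dpi. The muscle median had the opposite direction at 21 dpi below, where the listed genes were partly others. For 5 erythrocyte markers the median was 0.044, for 6 Schwann cell markers -0.024, and of 12 liver genes only Trf was listed, with 0.025. At 21 dpi the median centred ratio was -0.49 for 9 microglia and macrophage markers (1353 FPKM in ApoE3 and 2559 FPKM in ApoE4, led by C1qa), -0.24 for 9 astrocyte markers (14021 FPKM in ApoE3 and 24328 FPKM in ApoE4, led by Gfap), -0.034 for 13 neuron markers and -0.085 for 6 oligodendrocyte markers. Markers of tissues other than the cord differed most at 21 dpi, with 1.71 for 9 of 10 Schwann cell markers and 2.04 for 10 of 11 sensory ganglion neuron markers, whose summed level of 889 FPKM in ApoE3 and 1027 FPKM in ApoE4, led by Calca, had the opposite order. The median was -3.37 for 9 of 14 skeletal muscle markers (35.1 FPKM in ApoE3 and 737 FPKM in ApoE4, Tnnt3 being the most abundant) and -2.08 for 8 of 12 liver genes (11.4 FPKM in ApoE3 and 131 FPKM in ApoE4, Apoa2 being the most abundant). At 0 at 21 dpi were Mrgprd and Trpv1 of the sensory ganglion list in ApoE4 and Myh4 of the muscle list in ApoE3. Fibroblast markers had a median centred ratio at 21 dpi of 0.59 (8 genes), endothelial markers 0.096 (6 genes), erythrocyte markers 0.14 (4 genes) and lymphocyte markers -0.23 (3 genes). The part of these differences in the ratios of the ribosomal protein genes was not tested.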

How the data were processed

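RNA sequencing had been done with 100 nucleotide single-end reads on lesion segments, and the methods give 3 mice for each genotype at each time point. The authors' libraries were down-sampled to equal read numbers, and the submitters' processing notes name STAR 2.5.4b, Bowtie2 2.1.10, SAMtools 0.1.7 and Cuffdiff 1.3.0. The genome build and annotation are not given in the sources used here. The deposited table gives FPKM plus 1, as 1 value per gene and group, and the time points were compared separately. It also holds the authors' fold change, log2 fold change, p-value, q-value and a significance call, and a second table holds their log2 fold changes for differentially expressed genes; none of these was used. No value column was without a group.

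Here 1 was subtracted from each value, and log2 ratios of ApoE3 over ApoE4 were computed with a pseudocount of 1 FPKM. No filter on low values was applied, and a fold of 1.3 was counted in each direction. Centred ratios are minus the median of all genes whose mean reaches 1 FPKM. Shares are percents of summed FPKM over genes listed at both time points. No test was run, because there is 1 value per group; the table does not give the reads behind each value. The methods name 1 replicate, its group not given in the sources used here, with a lower share of aligned reads than the others. Symbols matched RefSeq in 25341 of 25601 rows. The share of 100-base windows found in other genes and the protein lengths came from GENCODE vM21 transcripts and coding sequences, the latter in place of a protein table, and identity within paralog pairs was not computed. Promoter windows came from RefSeq, build GRCm38.p6.

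Named genes are the 5 with the highest and the 5 with the lowest ratio at each time point, the 5 with the highest and the 5 with the lowest mean FPKM of those listed at both, the members of the role lists, genes listed at 1 time point only, up to 15 genes past the fold in each direction, and the ends of each comparison list; some genes that these rules would name are not reported here. The members and the lists were chosen with earlier results of these data known. Alternatives were pseudocounts of 0.1 and 0.01, a mean FPKM of at least 1, centring, leaving out the paralogs, folds of 1.2 and 1.5, and other bases for the shares. The log2 ratio, its centring and the count past the fold were tested on simulated data, and the other procedures were not. Computations used matplotlib 3.10.9, scipy 1.17.1, pandas 2.3.3 and numpy 2.4.6 under Python 3.11.15.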

Additional observations from a re-analysis of the deposited data

Results flagged for a closer look

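The median ratio of the ribosomal protein genes minus that of all genes was -0.072 at 7 dpi and 0.054 at 21 dpi, so the list lay on opposite sides of all genes at the time points. So did the mitochondrial ribosomal proteins, with -0.066 and 0.057, and RNA polymerase I and its factors, with -0.148 and 0.069. The ribosome components outside the symbol rule were below all genes at both, with -0.081 and -0.057. Among single genes listed at both, Rpl28 lay on opposite sides by at least 1.1-fold each way, with -0.21 at 7 dpi and 0.23 at 21 dpi. This distance was chosen after the values were seen, and Rpl36, with -0.179 and 0.136, fell just short of it at 21 dpi. Each side rests on 1 value per group, and the difference between the time points was not tested.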

How the results depend on the processing

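With 1 value per group there is no spread between mice, so a median was taken as moved at a difference of 0.1 or more on the log2 scale, and a count or share beyond 1.5 times its value in the report. Of 48 recomputed values, 39 stayed within these limits, 8 moved and 1 changed direction. The median ratio at 21 dpi was -0.37 and became 0.054 once the median of all genes was subtracted, as the shift of all genes is larger than that of the ribosomal protein genes. The number of genes past the fold at 7 dpi, 1 in the report, was 0 at a fold of 1.5, 2 at a fold of 1.2, 0 among the 54 genes listed at both time points and 0 among the 41 genes with under 50% of their windows shared, since Rps2 is in neither set. At 21 dpi the 25 genes past the fold became 2 after centring, 1 at a fold of 1.5, 43 at a fold of 1.2 and 16 among the 31 genes with under 50% of their windows shared. The count of 16 comes from a smaller set of genes than the 25 of 54. Shares of all rows past folds of 1.2 and 1.5 were not computed at either time point. The counts at these folds are therefore not a result about the ribosomal protein genes. The alternatives by listing and by shared windows were chosen after seeing the data. Pseudocounts, the filter on low values and leaving out the paralogs kept each count and median within the limits, and the shares kept their order between genotypes at both time points under the 3 alternatives run. The libraries had been brought to equal read numbers, but the table gives neither the reads behind a value nor the spread between mice, so the precision of single genes cannot be given.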
